A study of Mus musculus with 6 samples.

Results

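The genes described here encode the motors and regulators of the sperm tail. They are the 61 protein-coding genes of mouse whose symbols name axonemal dynein heavy chains (Dnah, 15 genes), factors that assemble axonemal dyneins (Dnaaf, 4 genes), radial spoke proteins (Rsph, 8 genes), subunits of the nexin-dynein regulatory complex (Drc, 3 genes) or other cilia- and flagella-associated proteins (Cfap, 31 genes). They were taken by symbol alone from GENCODE mouse release M21, out of 55536 genes counted in the testis, and no measured value entered the choice. Genes of the same complexes that carry other symbols, such as the dynein intermediate chains and the tektins, were counted apart from them and are described after them.

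The axoneme is the microtubule core of motile cilia and of the sperm flagellum. Dynein arms attached to its outer doublets slide the doublets against each other, with outer arms and several kinds of inner arms built on different heavy chains, and the radial spokes, the central pair and the nexin-dynein regulatory complex shape that sliding into a beat. Dyneins are folded and joined in the cytoplasm by the Dnaaf proteins before they are carried to the axoneme, and in the testis the flagellum is built in spermatids from transcripts of which many are already made in spermatocytes.

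Testes of 3 KOStra8 and 3 HETStra8 mice aged 7 weeks were compared, with 1 poly(A)+ library per mouse. KOStra8 mice (Sel1L flox/Δ;Stra8-Cre) have a floxed allele and a deleted allele of Sel1L, the gene for an adaptor of protein degradation at the endoplasmic reticulum, and a Cre recombinase under the Stra8 promoter of male germ cells. In this model SEL1L protein is lost from spermatocytes and spermatids but is still seen in spermatogonia, where the Cre is only partly active, and in Sertoli cells. HETStra8 mice are heterozygous littermates, given as Sel1L flox/Δ with the libraries, while the paper also takes mice with Sel1L flox/+ and Stra8-Cre as HETStra8, without a genotype for each mouse, so both groups may share a deleted allele. The RNA is that of the whole testis, in which fewer cells of a type and less RNA per cell cannot be told apart.

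Library totals lay between 28875108 and 36526695 counts, and the biological coefficient of variation between mice was 0.160. After scaling by edgeR's TMM method, levels are given as CPM, counts scaled to a common library size. All 61 genes passed the filter on low counts, and together they took between 1.38% and 1.44% of the counts in the HETStra8 libraries and between 1.42% and 1.5% in the KOStra8 libraries. The targeted gene, Sel1l, was at 49.3, 47.6 and 42.4 CPM in HETStra8 mice 1 to 3 and at 24.2, 22.0 and 20.3 CPM in KOStra8 mice 1 to 3, so that each library matched its label. Within both groups the axonemal genes were uneven. HETStra8 mouse 1 was the lowest of its group for 28 of the 61 genes, mouse 2 for 6 and mouse 3 for 27, while they were the highest for 18, 18 and 25. KOStra8 mice 1 to 3 were the lowest of their group for 20, 27 and 14 genes and the highest for 22, 23 and 16.

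The outer arm chains of the testis were those known from the sperm flagellum. To compare genes with each other, CPM were divided by the length of the longest transcript in kilobases. Dnah8 (ENSMUSG00000033826, chr17:30624354-30877365 of GRCm38), an outer arm heavy chain of the sperm flagellum, had the highest level of the 15 heavy chains, with 103 ± 12.5 CPM per kb (SD, n = 3) in HETStra8 and 107 ± 11.7 CPM per kb in KOStra8 testes. Dnah17 (ENSMUSG00000033987, chr11:118021723-118130634), the other outer arm chain of the sperm flagellum, was next, with 62.3 ± 6.58 and 57.3 ± 7.35 CPM per kb. The 10 heavy chains that followed lay between 12.6 CPM per kb for Dnah7a and 24.6 CPM per kb for Dnah1 in the mean of the groups. Over the 6 mice the values of every pair of neighbours among these 10 overlapped, although Dnah2 lay above Dnah3 in each mouse, while the values of Dnah8, Dnah17 and Dnah1 did not overlap. They include Dnah1, Dnah2, Dnah3, Dnah6, Dnah7a, Dnah7b, Dnah7c, Dnah10 and Dnah12 of the inner arms, of which Dnah2 and Dnah10 form the inner arm with a pair of heads.

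The outer arm chains known from motile cilia of the airway stood far below these. Dnah5 (ENSMUSG00000022262), the cilia counterpart of Dnah8, was at 0.288 ± 0.0420 and 0.345 ± 0.0153 CPM per kb (SD, n = 3) in HETStra8 and KOStra8 testes. Dnah9 (ENSMUSG00000056752) and Dnah11 (ENSMUSG00000018581), the cilia counterparts of Dnah17, were at 0.567 ± 0.144 and 0.0928 ± 0.0139 CPM per kb in HETStra8 testes. Within each mouse, the level per kb of Dnah8 was 409, 331 and 336 times that of Dnah5 in HETStra8 mice 1 to 3, and for KOStra8 mice 1 to 3 it was 356, 261 and 313 times. The ratios of the groups overlapped, with a two-sided exact permutation p of 0.4, where 3 mice against 3 cannot give a p below 0.1. Dnah17 was 117 ± 42.4 times Dnah9 in HETStra8 and 91.1 ± 18.8 times in KOStra8 testes (exact permutation p = 0.5). Dnah17 was 859, 666 and 534 times Dnah11 in HETStra8 mice 1 to 3, while KOStra8 mice 1 to 3 had 904, 1690 and 1100 times. These ratios did not overlap, with an exact permutation p of 0.1 before and 0.3 after adjustment over the 9 ratios compared, and they rest on the few counts of Dnah11.

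The radial spoke genes showed the same order of sperm and cilia forms. Rsph6a (ENSMUSG00000040866), a spoke head gene of the testis, was at 116 ± 12.2 and 117 ± 2.52 CPM per kb (SD, n = 3) in HETStra8 and KOStra8 testes, and its counterpart in motile cilia, Rsph4a (ENSMUSG00000039552), at 0.111 ± 0.0397 and 0.105 ± 0.0295 CPM per kb. Rsph4a rested on 11, 10 and 19 counts in HETStra8 mice 1 to 3 and on 9, 13 and 16 counts in KOStra8 mice 1 to 3. The ratio of Rsph6a to Rsph4a was 1140 ± 430 in HETStra8 and 1190 ± 372 in KOStra8 testes, and the groups overlapped (two-sided exact permutation p = 0.9). Markers of multiciliated epithelium, which lines the efferent ducts, were uneven in these libraries. Sntn was at most 0.0297 CPM in any mouse, and Mcidas, Cdhr3 and Tmem212 were at most 0.159 CPM. Gmnc was at 0, 0.0594 and 0.27 CPM in HETStra8 mice 1 to 3 and at 0.515, 0.38 and 0.356 CPM in KOStra8 mice 1 to 3. Its groups did not overlap (adjusted p = 0.383 in edgeR's test). Ccno lay between 2.49 and 3.75 CPM over the mice, and Cdc20b between 4.53 and 7.84 CPM. The 12 markers of that list summed to between 435 and 531 CPM in HETStra8 and between 481 and 507 CPM in KOStra8 testes, nearly all of it from Deup1, Foxj1, Dynlrb2 and Cdhr4.

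**Figure D1:**
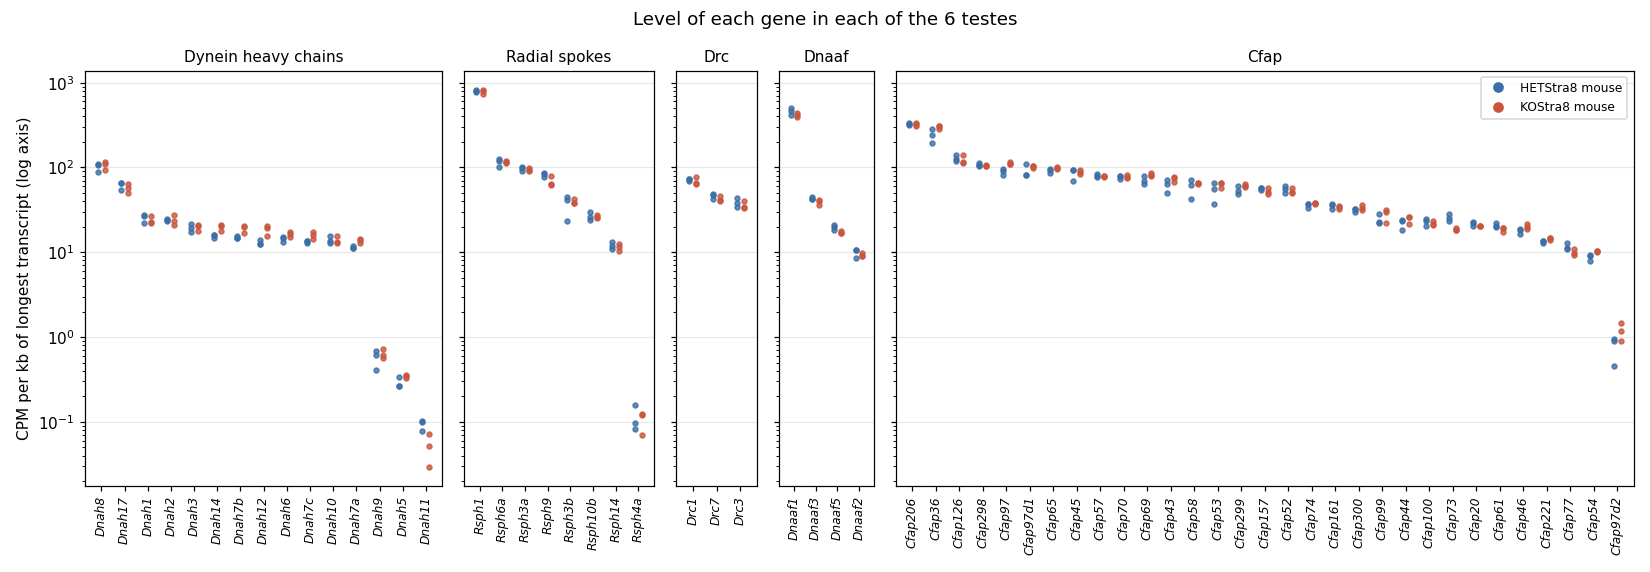
Level of each of the 61 genes in each of the 6 testes, in CPM per kb of the longest transcript on a log axis, in 5 panels by gene family and ordered by level, with 1 point per mouse (HETStra8 blue, KOStra8 red). Dnah8 and Dnah17 stand above the other heavy chains, and Dnah5, Dnah9, Dnah11, Rsph4a and Cfap97d2 lie at about 1 CPM per kb or below in both groups.

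Across all 61 genes the levels ran from 0.072 CPM per kb for Dnah11 to 795 CPM per kb for Rsph1, with a median of 34.6. Rsph1 (ENSMUSG00000024033, chr17:31255019-31277383), another spoke head gene, was at 985, 953 and 933 CPM in HETStra8 mice 1 to 3 and at 866, 986 and 959 CPM in KOStra8 mice 1 to 3. Dnaaf1 (ENSMUSG00000031831), a leucine-rich repeat protein of dynein assembly, came next with 437 CPM per kb. It was at 1415, 1302 and 1178 CPM in HETStra8 and at 1109, 1238 and 1162 CPM in KOStra8 mice 1 to 3. The third was Cfap206 (ENSMUSG00000028294), a protein at the base of the radial spokes, with 323 CPM per kb and 708, 754 and 722 CPM in HETStra8 and 700.2, 745 and 729 CPM in KOStra8 mice 1 to 3. The groups overlapped for all 3 of these genes. Drc1 led its family with 70.4 CPM per kb, and medians were 54.3 for Cfap, 56.5 for Rsph, 44.4 for Drc, 29.8 for Dnaaf and 15.6 CPM per kb for Dnah. A gene whose testis transcript is shorter than the longest annotated transcript is understated on this scale.

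Between the genotypes, none of the 61 genes reached a fold of 2 together with an adjusted p below 0.01 in edgeR's quasi-likelihood test with Benjamini-Hochberg adjustment over 21465 genes. Of all tested genes 1 (0.00466%) passed as higher and 1 (0.00466%) as lower in KOStra8, so a count of 0 among the 61 says little about these genes in particular. The paper reports many more genes past these cutoffs, with a test that it does not name. With an adjusted p of 0.05 and no limit on the fold the count was also 0, against 0.0186% of all tested genes higher and 0.00466% lower, and the smallest adjusted p was 0.0734. Before adjustment, 13 genes (21.3%) had a p below 0.05 and a higher level in KOStra8 testes and 3 (4.92%) a lower level, against 7.13% and 5.12% of all tested genes. DESeq2's Wald test gave adjusted p-values for 57 of the genes and called 5 at 0.05, Dnah12, Dnah14, Dnah7b and Cfap97 higher and Cfap73 lower, against 2.50% of its 12232 genes higher and 0.392% lower. Without a filter on low counts edgeR's test called 6, against 1.51% of its 35894 genes higher and 0.329% lower. Limma-voom called 0 at an adjusted p of 0.05, against 0.149% of all tested genes, and before adjustment had 13 higher and 5 lower with a p below 0.05, against 7.67% and 5.11%. HETStra8 mouse 3 weighed on the adjusted counts: without it, edgeR's test called 8 of the genes higher and 1 lower at an adjusted p of 0.05, against 3.93% and 0.969% of all tested genes. All 3 KOStra8 mice lay above all 3 HETStra8 mice for 9 of the genes (14.8%) and below them for 7 (11.5%), which was so for 9.33% and 8.43% of all tested genes. Dnah7a, Dnah7b and Dnah7c, near-identical copies that may not be separate measurements, are among these 9 and among the 13 higher before adjustment.

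The differences were small in every family. The median log2 fold change of KOStra8 over HETStra8 was 0.013 over the 61 genes, with 31 higher and 30 lower, and −0.009 over all tested genes. By family it was 0.168 for the 15 Dnah genes with 10 higher, and 0.098 for the 31 Cfap genes with 19 higher. The medians were −0.033 for the 8 Rsph genes with 2 higher, −0.108 for the 3 Drc genes and −0.150 for the 4 Dnaaf genes, and in the last 2 families no gene was higher. Standard errors had a median of 0.0872 on the log2 scale, and the 95% interval lay within a 2-fold difference in either direction for 58 of the 61 genes. The exceptions were Cfap97d2, Dnah11 and Rsph4a, which had few counts. Offsets that correct for the GC content and length of transcripts, described with the GC values further on, moved the medians of Drc, Dnaaf and Rsph to 0.018, 0.001 and 0.048, so that the direction of these 3 families changed with the scaling.

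**Figure D2:**
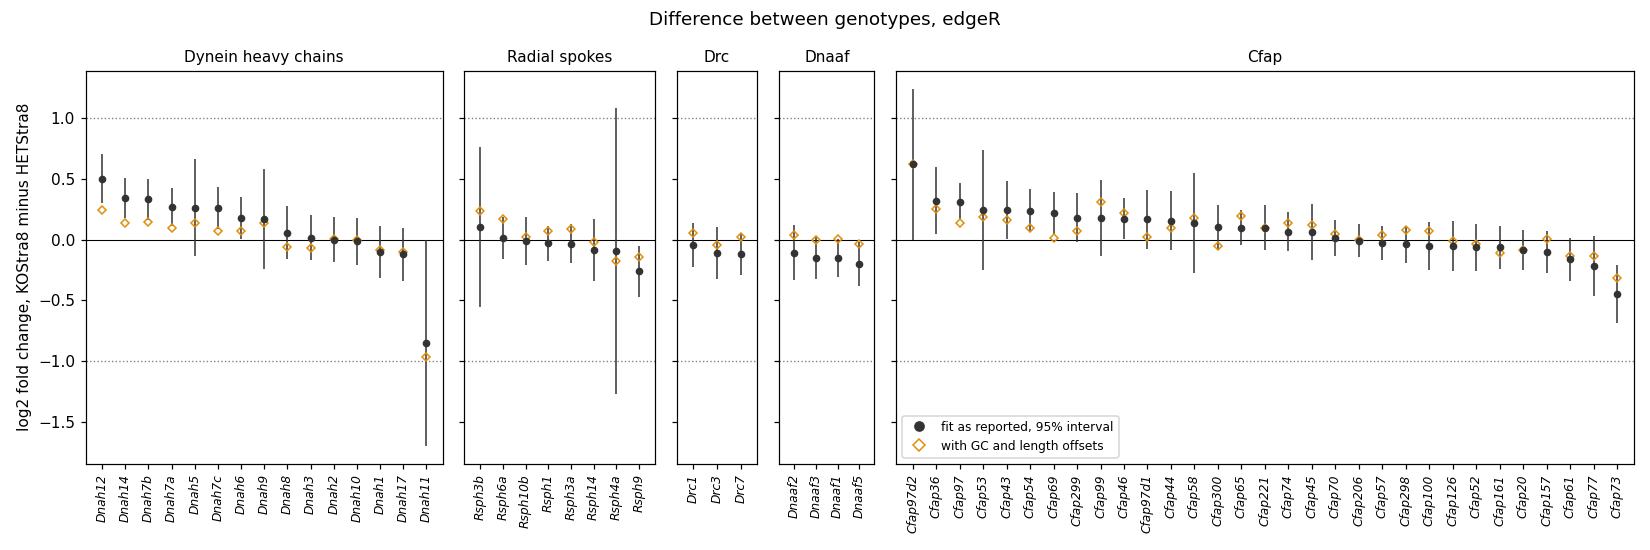
Log2 fold change of KOStra8 over HETStra8 testes for each of the 61 genes, in 5 panels by family and ordered by size, with the 95% interval of edgeR's fit (black) and the value with GC and length offsets (orange diamonds); dotted lines mark a fold of 2. Only Cfap97d2, Dnah11 and Rsph4a have intervals that reach past a fold of 2.

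Dnah12 had the smallest p of the 61 genes. Dnah12 (ENSMUSG00000021879, chr14:26693274-26891703) encodes an inner arm heavy chain. It was at 149, 149.8 and 167 CPM in HETStra8 mice 1 to 3 and at 243, 188 and 229.6 CPM in KOStra8 mice 1 to 3. The groups did not overlap, and KOStra8 mouse 2 was the nearest to the HETStra8 mice. The log2 fold change was 0.50 (SE 0.0938, unadjusted p = 0.0001), and the adjusted p of 0.0734 in edgeR's quasi-likelihood test missed the threshold. Leaving out each mouse in turn gave log2 fold changes between 0.43 and 0.61 and adjusted p-values between 0.00357 and 0.496 in edgeR's test. With the GC and length offsets the log2 fold change of Dnah12 was 0.24.

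Dnah14 (ENSMUSG00000047369, chr1:181576559-181815774) was at 221, 203 and 217 CPM in HETStra8 mice 1 to 3 and at 284, 247 and 281 CPM in KOStra8 mice 1 to 3. Again the groups did not overlap, and KOStra8 mouse 2 was the lowest of its group. The log2 fold change was 0.34 (SE 0.0761, adjusted p = 0.119 in edgeR's test), and 0.14 with the offsets. Exons of other genes lie on the opposite strand over 907 bases of the exons of Dnah14, and whether the counting used the strand is not given in the sources used here. Such overlaps are found for 27 of the 61 genes, and the same limit holds for their levels and fold changes. Among them are Dnah3 with 1506 bases, Dnaaf2 with 1107, Cfap298 with 851, Dnah8 with 650, Dnaaf1 with 584 and Dnaaf5 with 373.

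Dnah7a, Dnah7b and Dnah7c are 3 copies of an inner arm heavy chain on chromosome 1, with Dnah7b and Dnah7c next to each other and Dnah7a apart from them on the other strand. Their coding sequences are alike, with 97.0% identity between Dnah7a and Dnah7b, 96.8% between Dnah7a and Dnah7c and 97.3% between Dnah7b and Dnah7c. Of the 50-base sequences in their transcripts, 38.6% for Dnah7a, 30.0% for Dnah7b and 46.8% for Dnah7c are also held by another gene, so that the counts of each copy are uncertain while reads of the other stretches tell the copies apart. The 90 coding bases in which the copies differ most are shown to make this visible, read from the GENCODE transcripts on GRCm38 and with the 20 positions at which they differ in capitals. They lie at chr1:53635309-53635398 on the minus strand for Dnah7a, and on the plus strand at chr1:46124388-46124477 for Dnah7b and at chr1:46515325-46515414 for Dnah7c.
Dnah7a: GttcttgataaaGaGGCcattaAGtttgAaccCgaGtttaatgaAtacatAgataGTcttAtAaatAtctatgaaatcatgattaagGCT
Dnah7b: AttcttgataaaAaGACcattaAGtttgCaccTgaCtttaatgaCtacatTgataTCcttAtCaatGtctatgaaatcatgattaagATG
Dnah7c: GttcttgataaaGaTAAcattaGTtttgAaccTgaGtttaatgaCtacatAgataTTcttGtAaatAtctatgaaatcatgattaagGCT

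All of the Dnah7 copies were counted in every testis. Dnah7a (ENSMUSG00000096141) was at 137, 145 and 136 CPM in HETStra8 mice 1 to 3 and at 172, 158 and 173 CPM in KOStra8 mice 1 to 3. Dnah7b (ENSMUSG00000041144) was at 193, 183 and 183 CPM in HETStra8 mice and at 249.9, 210.3 and 244 CPM in KOStra8 mice. Dnah7c (ENSMUSG00000101337) was at 166, 158.5 and 167 CPM in HETStra8 mice and at 214, 177 and 197 CPM in KOStra8 mice. For each copy the KOStra8 mice lay above the HETStra8 mice and KOStra8 mouse 2 was the lowest of its group. The log2 fold changes of Dnah7a, Dnah7b and Dnah7c were 0.27, 0.33 and 0.26, and edgeR's test gave adjusted p-values of 0.193, 0.135 and 0.241. With the GC and length offsets they were 0.10, 0.15 and 0.07. The level per kb of Dnah7b was 1.33 ± 0.0711 times that of Dnah7a in HETStra8 and 1.39 ± 0.0597 times in KOStra8 testes (SD, n = 3 mice per group, two-sided exact permutation p = 0.4). Against Dnah7c the ratio was 1.15, 1.15 and 1.09 for HETStra8 mice 1 to 3, and the KOStra8 mice had 1.16, 1.18 and 1.23, ratios that did not overlap (exact permutation p = 0.1, and 0.3 adjusted over the 9 ratios). How reads of shared stretches were counted is not given in the sources used here, so the copies may not be separate measurements.

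The outer arm chains gave other values. Dnah8 was at 1806, 1857 and 1472 CPM in HETStra8 mice 1 to 3 and at 1959, 1571 and 1810 CPM in KOStra8 mice 1 to 3, with a log2 fold change of 0.06 and a 95% interval from −0.16 to 0.28, which the offsets turned to −0.06. Dnah17 was at 989, 989.5 and 818 CPM in HETStra8 and at 964, 744 and 866 CPM in KOStra8 mice 1 to 3, with a log2 fold change of −0.12 (interval −0.34 to 0.10). The groups overlapped for both genes, but the genes followed each other from mouse to mouse. Their ratio per kb was 1.64, 1.68 and 1.61 in HETStra8 mice 1 to 3, and KOStra8 mice 1 to 3 had 1.82, 1.89 and 1.88. These ratios did not overlap, with a two-sided exact permutation p of 0.1, which is the lowest this design can give, and 0.3 after adjustment over the 9 ratios that were compared. The GC content is 48.0% in Dnah8 and 55.0% in Dnah17, and with the GC and length offsets the log2 fold changes were −0.06 and −0.10.

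Of the inner arm chains Dnah1, Dnah2, Dnah3, Dnah6 and Dnah10, Dnah6 had the smallest p. It was at 188, 193 and 166 CPM in HETStra8 and at 219.7, 191 and 207 CPM in KOStra8 mice 1 to 3, groups that overlapped, with a log2 fold change of 0.18 (adjusted p = 0.402 in edgeR's test). For Dnah1, Dnah2, Dnah3 and Dnah10 the log2 fold changes lay between −0.10 and 0.02. The ratio of Dnah2 to Dnah10, the chains of the inner arm with a pair of heads, was 1.74 ± 0.150 per kb in HETStra8 and 1.74 ± 0.0756 in KOStra8 testes.

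The cilia forms had the lowest counts of the heavy chains. Dnah11 was at 1.08, 1.40 and 1.44 CPM in HETStra8 mice 1 to 3 and at 1.00, 0.414 and 0.740 CPM in KOStra8 mice 1 to 3, from 34, 47 and 48 and from 35, 12 and 27 counts. The KOStra8 mice lay below the HETStra8 mice, mouse 1 by little, and the log2 fold change was −0.85 with an interval from −1.70 to 0.001 (adjusted p = 0.408 in edgeR's test). Exons of Cdca7l overlap the exons of Dnah11 on the opposite strand over 642 bases, and without a known strand setting reads of the 2 genes cannot be told apart there. Dnah5 was at 4.14, 5.26 and 4.11 CPM in HETStra8 and at 5.15, 5.63 and 5.42 CPM in KOStra8 mice 1 to 3, and Dnah9 at 5.57, 8.56 and 9.33 and at 7.87, 8.50 and 9.998 CPM. The groups overlapped for Dnah5 and Dnah9.

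Among the Cfap genes, Cfap97 had the smallest p of those with a higher level in KOStra8 testes. Cfap97 (ENSMUSG00000031631, chr8:46151771-46195590) was at 381, 421 and 442.5 CPM in HETStra8 mice 1 to 3 and at 509, 507 and 531 CPM in KOStra8 mice 1 to 3. The groups did not overlap, and the KOStra8 mice differed from each other by less than the HETStra8 mice did. The log2 fold change of Cfap97 was 0.31 (SE 0.0709, adjusted p = 0.130 in edgeR's test), and 0.14 with the offsets. Cfap69, a central pair protein of sperm, was at 317, 342 and 392 CPM in HETStra8 mice 1 to 3 and at 406, 388 and 429 CPM in KOStra8 mice 1 to 3, a log2 fold change of 0.22 (adjusted p = 0.312 in edgeR's test) that became 0.01 with the offsets. HETStra8 mouse 3 reached into the range of the KOStra8 mice for Cfap69.

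The proteins of Cfap46, Cfap54, Cfap74 and Cfap221 sit together on a projection of the central pair, a group picked out after its values were seen. Cfap54 (ENSMUSG00000020014) was at 90.5, 90.8 and 77.8 CPM in HETStra8 mice 1 to 3 and at 104, 98.7 and 103 CPM in KOStra8 mice 1 to 3, with a log2 fold change of 0.24 (adjusted p = 0.287 in edgeR's test), and 0.10 with the offsets. Cfap46 was at 135, 148 and 153 CPM in HETStra8 and at 176, 155 and 160.2 CPM in KOStra8 mice 1 to 3, and its log2 fold change of 0.17 was 0.22 with the offsets. Cfap221 was at 37.4, 38.8 and 39.3 CPM in HETStra8 and at 42.1, 41.7 and 39.8 CPM in KOStra8 mice 1 to 3, a log2 fold change of 0.10. The KOStra8 mice lay above the HETStra8 mice for these 3 genes, by little for Cfap46 and Cfap221, while for Cfap74 the groups overlapped, with a log2 fold change of 0.07.

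Cfap43 and Cfap44, whose proteins tether an inner arm, had log2 fold changes of 0.24 and 0.16, and HETStra8 mouse 1 was the lowest of the 6 mice for both. Of the proteins inside the doublet microtubules, Cfap20, Cfap45, Cfap52, Cfap53, Cfap126 and Cfap161, the log2 fold changes lay between −0.08 and 0.25. That of Cfap53 was the highest, and there HETStra8 mouse 1, at 77.1 CPM, stood apart from the other 5 mice, which lay between 115 and 137 CPM. The same mouse was the lowest of the 6 for Cfap36, at 320.0 CPM against 402 and 477 CPM in HETStra8 mice 2 and 3. KOStra8 mice 1 to 3 were at 474, 516 and 508 CPM. The log2 fold change of Cfap36 was 0.32 (adjusted p = 0.354 in edgeR's test). Cfap97d2 was the lowest of the family, at 1.495, 2.97 and 3.15 CPM in HETStra8 and at 4.84, 2.97 and 3.92 CPM in KOStra8 mice 1 to 3, groups that overlapped.

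Of the genes that were lower in KOStra8 testes, Cfap73 had the smallest p. Cfap73 (ENSMUSG00000094282, chr5:120628335-120634235) encodes a modifier of the inner arms. It was at 25.8, 23.2 and 21.4 CPM in HETStra8 mice 1 to 3 and at 17.0, 16.7 and 17.8 CPM in KOStra8 mice 1 to 3. The groups did not overlap, and the KOStra8 mice lay close to each other. The log2 fold change was −0.45 (SE 0.111, adjusted p = 0.150 in edgeR's test), between −0.50 and −0.38 with each mouse left out in turn, and −0.31 with the offsets. Its partner in the modifier of inner arms, Cfap100, had a log2 fold change of −0.05, with groups that overlapped. Cfap61, of the complex at the base of the radial spokes that binds calmodulin, was at 82.6, 88.2 and 79.9 CPM in HETStra8 and at 76.5, 69.3 and 78.3 CPM in KOStra8 mice 1 to 3, a log2 fold change of −0.16 with groups that did not overlap. Cfap77, another protein of the doublets, was at 20.2, 23.7 and 20.4 CPM in HETStra8 and at 18.2, 20.04 and 17.0 CPM in KOStra8 mice 1 to 3, with a log2 fold change of −0.22. The adjusted p-values of Cfap61 and Cfap77 in edgeR's test were 0.441 and 0.450.

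In the radial spoke family, Rsph9 (ENSMUSG00000023966, chr17:46122035-46144216), a spoke head gene, had the smallest p. It was at 82.3, 73.9 and 80.6 CPM in HETStra8 mice 1 to 3 and at 62.0, 75.8 and 60.04 CPM in KOStra8 mice 1 to 3. KOStra8 mouse 2 lay within the HETStra8 range, and without it the log2 fold change was −0.37 in place of −0.26 (adjusted p = 0.312 in edgeR's test with all mice). The partners of Rsph9 in the spoke head gave smaller values, with log2 fold changes of −0.03 for Rsph1, 0.01 for Rsph6a and −0.01 for Rsph10b, of which the offsets turned Rsph1 to 0.07 and Rsph10b to 0.02. Rsph3a and Rsph3b, copies of a spoke stalk gene on chromosome 17 with 99.2% identity in their coding sequence, share over 50% of their 50-base sequences. Rsph3a was at 226, 219 and 201 CPM in HETStra8 mice 1 to 3 and at 200.2, 222 and 209 CPM in KOStra8 mice 1 to 3. Rsph3b was at 102, 93.2 and 51.9 CPM in HETStra8 and at 85.8, 94.8 and 84.7 CPM in KOStra8 mice 1 to 3. HETStra8 mouse 3 stood apart for Rsph3b, and the ratio of Rsph3a to Rsph3b was 3.91 in that mouse and between 2.24 and 2.49 in the other 5. Without that mouse the log2 fold change of Rsph3b was −0.13 in place of 0.10.

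The assembly factors and the Drc genes had lower means in KOStra8 testes in the fit without offsets. Dnaaf5 (ENSMUSG00000025857) was at 72.6, 69.2 and 62.5 CPM in HETStra8 mice 1 to 3 and at 60.8, 58.3 and 58.8 CPM in KOStra8 mice 1 to 3, and Dnaaf3 at 94.8, 95.4 and 99.2 and at 92.0, 89.0 and 80.0 CPM. The groups of Dnaaf3 and Dnaaf5 did not overlap, but with the offsets their log2 fold changes of −0.15 and −0.20 became −0.003 and −0.04. Dnaaf1, described above by its level, had a log2 fold change of −0.15 that became 0.005, and Dnaaf2 one of −0.11 that became 0.04. Dnaaf2, the lowest of the family per kb, was at 36.4, 36.3 and 29.2 CPM in HETStra8 and at 30.8, 33.2 and 30.6 CPM in KOStra8 mice 1 to 3, groups that overlapped. Dnaaf2 shares 37.9% of its 50-base sequences with other genes, mainly Gm49383, and its counts are uncertain. Drc1 was at 179, 179.8 and 171 CPM in HETStra8 and at 159, 162 and 193 CPM in KOStra8 mice 1 to 3, and Drc3 at 106, 91.7 and 84.3 and at 83.5, 96.9 and 81.6 CPM. The groups overlapped for Drc1, Drc3 and Drc7, and the log2 fold changes were −0.04, −0.11 and −0.12, of which the offsets turned Drc1 and Drc7 to 0.05 and 0.02.

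**Figure D3:**
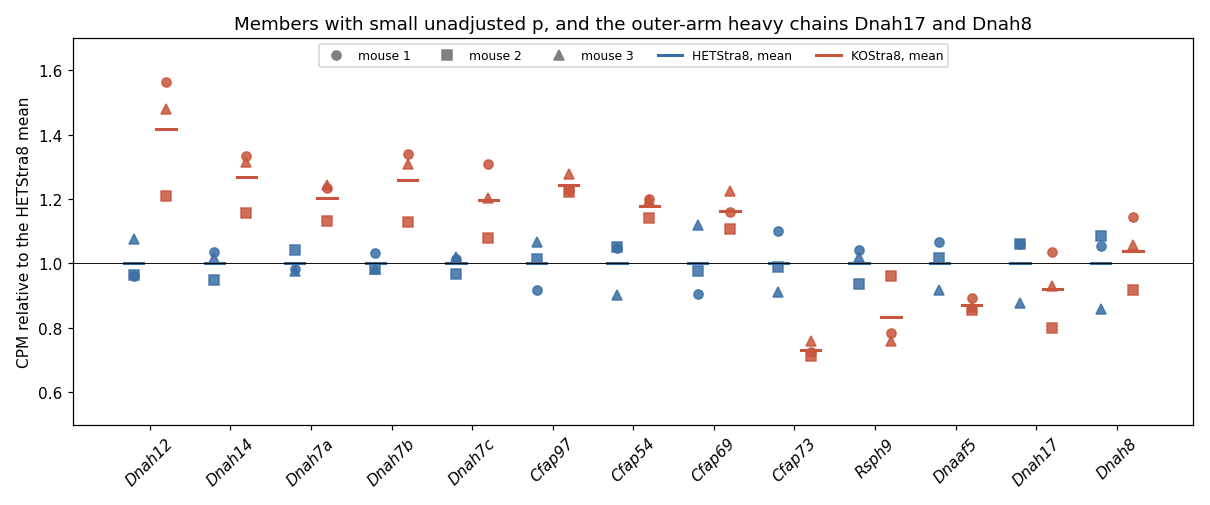
CPM of each mouse relative to the mean of the HETStra8 mice (line at 1) for 11 genes with small unadjusted p and for Dnah17 and Dnah8, with a symbol per mouse number and bars at the group means (HETStra8 blue, KOStra8 red). The KOStra8 mice lie above the HETStra8 mice for Dnah12, Dnah14, the Dnah7 copies, Cfap97 and Cfap54 and below them for Cfap73 and Dnaaf5, while the groups overlap for Cfap69, Rsph9, Dnah17 and Dnah8.

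The differences followed the GC content of the transcripts. Across the 61 genes, which are not independent replicates and share their libraries, the Spearman rho between log2 fold change and GC content was −0.65, and it was −0.46 across 21457 of the tested genes. It was −0.88 across the 15 Dnah genes and −0.59 across the 31 Cfap genes. Of the 21 genes with the lowest GC content, 40.9% to 47.4%, 19 were higher in KOStra8 testes with a median log2 fold change of 0.245, and of the 20 with the highest, 53.2% to 59.6%, 4 were higher with a median of −0.077. All tested genes within the same GC limits had medians of 0.095, with 67.1% higher, and of −0.133, with 23.8% higher. Dnah12 has 41.9% GC, the 3 Dnah7 copies 44.1% to 44.7% and Cfap97 41.5%, while Cfap73 has 57.1% and the Dnaaf genes 55.7% to 58.6%.

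With offsets fitted to GC content and transcript length in each library, rho became −0.17 across the 61 genes, −0.03 across the Cfap genes and −0.74 across the Dnah genes. Then 40 of the 61 genes were higher, with a median log2 fold change of 0.046, against −0.001 over all tested genes. At an unadjusted p below 0.05, 8 of the genes (13.1%) were higher and 2 (3.28%) lower, against 4.07% and 3.51% of all tested genes, and at an adjusted p of 0.05 edgeR's test called 0 of them, against 0.0606% of all tested genes in either direction. The 8 were Dnah12, Cfap97, Dnah7b, Cfap36, Cfap46 and Cfap97d2, with unadjusted p-values of 0.00216, 0.0207, 0.0372, 0.0323, 0.00963 and 0.0443, and Cfap65 and Rsph6a, with 0.00934 and 0.0151, which had missed 0.05 without the offsets. The 2 were Cfap73, with 0.00903, and Dnah11, with 0.024, which had also missed it. The part of GC content in the differences was not tested beyond these values.

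**Figure D4:**
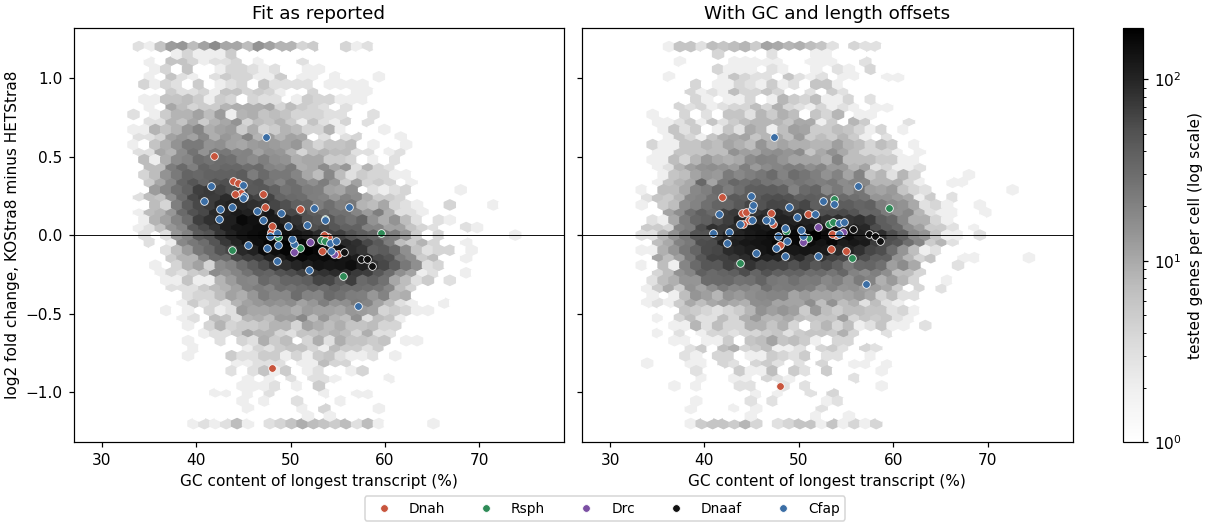
Log2 fold change of KOStra8 over HETStra8 testes against the GC content of the longest transcript (%), for the 61 genes as coloured points by family over all tested genes with a GC value as a grey density, without (left) and with (right) GC and length offsets; genes past the axis range are drawn at its edge. In the left panel the points run down from low to high GC content, with a Spearman rho of −0.65, and in the right panel rho is −0.17.

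Many promoters of axonemal genes hold sites of the RFX transcription factors, which bind the letters GTTGCC and, as pairs, palindromes of that site. RefSeq promoters of GRCm38.p6 were found for 49 of the 61 genes, and the 250 bases before the start were searched on both strands. GTTGCC or GGCAAC was in the promoters of 15 of the 49 genes (30.6%) and in 10.4% of all 32851 promoters. The 49 genes have 53 promoters, and a gene was counted if any of its promoters matched, while all promoters were counted singly. The 3 Dnah7 copies are among the 15. A palindrome of GTTGC followed by GCAAC after 3 or 4 bases of any kind, whose letters were set after the Dnah7 promoters had been read, was in 6 of the 49 (12.2%) and in 0.347% of all promoters, shares that are not independent since the 3 near-identical Dnah7 copies are among the 6. Of the X-box only the form GTTNCC followed by GGNAAC after 2 bases of any kind was searched, which was not taken from these promoters. This form was in 1 of the 49 (2.04%), that of Cfap298, and in 0.374% of all. How many promoters hold a looser X-box was not tested. Among the genes with a palindrome were Dnah7a, Dnah7b, Dnah7c, Cfap44 and Cfap298. The palindrome can contain the shorter motif, and a match is not evidence of binding. The palindromes of 3 genes are shown in capitals with 10 bases on either side, since Dnah7a and Dnah7c are copies of an inner arm chain and Cfap44 tethers an inner arm. They lie at chr1:53706819-53706851 on the minus strand for Dnah7a, at chr1:46425439-46425471 on the plus strand for Dnah7c and at chr16:44394762-44394795 on the plus strand for Cfap44.
Dnah7a: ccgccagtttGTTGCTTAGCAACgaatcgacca
Dnah7c: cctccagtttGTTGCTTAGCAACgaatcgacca
Cfap44: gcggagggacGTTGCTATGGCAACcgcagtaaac

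The palindrome of Dnah7b has the same 13 letters as those of Dnah7a and Dnah7c. No gene with a palindrome passed the adjusted threshold between the genotypes. The Dnah7 copies had log2 fold changes between 0.26 and 0.33, Cfap44 of 0.16 and Cfap298 of −0.04, the last with groups that overlapped and 0.08 with the offsets. The RefSeq window of Dnah12 holds no palindrome, but it ends 1720 bases before the GENCODE start of the gene, so the bases next to that start were not searched. Of the RFX genes and other factors of ciliary transcription, Mybl1 (A-MYB), a regulator of pachytene transcription, had the smallest p. Mybl1 was at 65.2, 63.1 and 79.4 CPM in HETStra8 mice 1 to 3 and at 89.98, 92.1 and 102 CPM in KOStra8 mice 1 to 3, groups that did not overlap, with a log2 fold change of 0.45 (adjusted p = 0.112 in edgeR's test) and of 0.10 with the offsets.

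Other genes of the axoneme, fixed in a list by complex together with the factors of ciliary transcription named above, were counted in the same way. Of 89 listed genes 84 were tested, and edgeR's test called 0 at an adjusted p of 0.05, against the 0.0186% higher and 0.00466% lower over all tested genes. Before adjustment, 14 of the 84 were higher and 5 lower with a p under 0.05, against 7.13% and 5.12% of all tested genes. The transcription factors gave 10 of the 84 tested genes, 2 of the 14 and 1 of the 5. Their median log2 fold change was −0.037, and −0.012 with the offsets. In the central pair Spag17 had the smallest p, with 488, 537 and 612 CPM in HETStra8 and 706, 624 and 698 CPM in KOStra8 mice 1 to 3, a log2 fold change of 0.31 (adjusted p = 0.192 in edgeR's test) and of 0.18 with the offsets. Among the tektins and proteins inside the doublets it was Tekt4, with 262, 266 and 277 CPM in HETStra8 and 223, 232 and 211 CPM in KOStra8 mice 1 to 3, a log2 fold change of −0.27 (adjusted p = 0.162 in edgeR's test) and of −0.14 with the offsets. The groups of Spag17 and of Tekt4 did not overlap. In the other subgroups the smallest p belonged to Dnal1, Armc4, Lrrc6, Tcte1 and Ak8. The light chain gene Dnal1 was at 25.1, 29.3 and 30.04 CPM in HETStra8 and at 33.7, 34.3 and 32.7 CPM in KOStra8 mice 1 to 3, a log2 fold change of 0.25 that was 0.16 with the offsets. Armc4, of the docking proteins, was at 61.0, 69.9 and 65.4 CPM in HETStra8 and at 75.2, 81.04 and 80.8 CPM in KOStra8 mice, a log2 fold change of 0.27 that was 0.21 with the offsets. The groups of Dnal1 and Armc4 did not overlap. The assembly factor Lrrc6 was at 74.1, 99.8 and 109 CPM in HETStra8 and at 109, 118 and 124 CPM in KOStra8 mice, a log2 fold change of 0.31 that was 0.14 with the offsets, and HETStra8 mouse 3 reached the KOStra8 range. Tcte1, of the regulatory complex, was at 300.0, 318 and 279 CPM in HETStra8 and at 263, 275 and 268 CPM in KOStra8 mice, and its log2 fold change of −0.15 was −0.01 with the offsets. Ak8, of the spokes, was at 273, 249.7 and 242 CPM in HETStra8 and at 223, 219 and 219 CPM in KOStra8 mice, and its log2 fold change of −0.21 was −0.10 with the offsets. The groups of Tcte1 and Ak8 did not overlap, and edgeR's test gave each of these 5 genes an adjusted p of 0.235 or more.

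Markers of germ cell stages and of other testis cells were summed per mouse to set beside these values. The 8 markers of leptotene to zygotene spermatocytes summed to between 330 and 517 CPM in HETStra8 and between 526 and 583 CPM in KOStra8 testes, with 7 of the 8 higher in KOStra8, and none at 0. Most of these sums came from Meioc, Sycp3 and Hormad1. The groups did not overlap for Meioc and Rad51ap2, and they overlapped for every other marker of this list. The 10 Sertoli cell markers summed to between 901 and 1080 CPM in HETStra8 and between 755 and 866 CPM in KOStra8 testes, with 1 of the 10 higher and none at 0. Most of these sums was Clu, at 885, 729 and 712 CPM in HETStra8 and at 657, 685 and 576 CPM in KOStra8 mice 1 to 3. Of the other somatic lists, 0 of 9 Leydig cell markers, 0 of 6 peritubular myoid markers and 1 of 8 macrophage markers were higher, with median log2 fold changes of −0.28, −0.15 and −0.36 and sums that overlapped between the groups. The sums also overlapped between the groups for spermatogonia, pachytene spermatocytes, round spermatids and elongating spermatids, the last at 17100 to 17200 CPM in HETStra8 and 15400 to 17200 CPM in KOStra8 testes. Most of the spermatogonia sums was Dmrtb1, at 672, 624 and 582 CPM in HETStra8 and at 534, 586 and 572 CPM in KOStra8 mice 1 to 3. Sums of the endothelial and blood lists overlapped too, with 2 of 6 endothelial and 0 of 4 tested blood markers higher. The 10 epididymis markers summed to between 4.53 and 13.4 CPM in HETStra8 and between 3.28 and 6.49 CPM in KOStra8 testes. HETStra8 mouse 1 had Crisp1 at 7.00 CPM, against at most 0.327 CPM in any other mouse. It also had Adam7 at 1.40 CPM, which was at 0 in the other mice. No marker was called by edgeR's test at an adjusted p of 0.05. The part of the cell makeup of these testes in the differences of the axonemal genes was not tested.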

How the data were processed

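Poly(A)+ RNA of the testes was made into directional libraries and sequenced as paired-end reads. The authors deposited raw counts without normalization, with a whole number of reads for each mouse at each of 55536 Ensembl genes. The submitters' processing notes name mm10 and GRCm38, FastQC, Trimmomatic, STAR 2.7.1a, Picard 2.20.4, StringTie 2.0.4, featureCounts 1.6.0, HTSeq and ChIPseeker; their order, roles and the strand setting of the counting are not given in the sources used here. Symbols, positions, GC content and lengths were taken from GENCODE M21, in which the identifiers were found.

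The counts of all 6 mice entered edgeR 4.0.16 in R 4.3.3. Its filterByExpr kept 21465 genes, TMM factors lay between 0.990 and 1.01, and groups were compared by a two-sided quasi-likelihood test from a robust fit on genotype alone, with p-values adjusted after Benjamini and Hochberg over the tested genes. The study's cutoffs, 2-fold and an adjusted p of 0.01, were used. The 6 library totals, from 28875108 to 36526695 counts, set the counting error of genes with few counts. Mice are numbered as in the sample titles.

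For the GC and length offsets a loess curve with a span of 0.3 was fitted in each library to genes with a log2 CPM over 2, and the 8 genes that lack a GC value were not corrected. The alternatives were library totals or DESeq2's size factors, a filter of at least 10 counts in every sample or none, DESeq2 1.42.0, limma-voom (limma 3.58.1), a replicate block, the offsets with and without the block, other cutoffs, other gene sets for the median, and leaving out each mouse. The steps were tested on simulated data.

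Values per mouse were given for the highest and lowest gene of each family per kb, for the 8 genes of smallest p in either direction, for the copies Dnah7a, Dnah7b, Dnah7c, Rsph3a and Rsph3b, and for the gene with the smallest p in each other axoneme subgroup. Dnah5, Dnah6, Dnah9, Dnah17, Rsph6a, Cfap36, Cfap46, Cfap53, Cfap221, the cilia markers, Clu, Dmrtb1, Crisp1 and Adam7 were given outside this rule, chosen after their values were seen. The promoter sequence of 1 gene is not reported here. The genes, lists and rules were chosen with earlier results of these data known.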

Additional observations from a re-analysis of the deposited data

How the results depend on the processing

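The count of 0 genes past the study's cutoffs held under every alternative run, the range without each mouse being 0 to 0. In the fit as reported only 1 of all tested genes passed as higher and 1 as lower, and these shares were not taken for the alternatives. The count of 0 is therefore not particular to the 61 genes. At an adjusted p of 0.05 the count was 6 without a filter (Cfap36, Dnah12, Cfap97, Dnah7b and Dnah14 higher and Cfap73 lower), 5 with DESeq2, and 0 to 9 without each mouse, the 9 without HETStra8 mouse 3 and 0 without any other. The count at an unadjusted p below 0.05, 16 as reported, was 10 with the GC and length offsets, with and without the block. Of all tested genes, 4.07% were then higher and 3.51% lower at that p, and 4.13% and 3.17% with the block. Without each mouse the count was 8 to 21. It was 8 without KOStra8 mouse 3, where 4.29% of all tested genes were higher and 2.27% lower at that p. It was 21 without HETStra8 mouse 3, where 11% were higher and 8.81% lower. The median log2 fold change of 0.013 was 0.046 with the offsets, 0.045 with the offsets and the block, and 0.001 to 0.047 without each mouse. It was −0.025 with the other axoneme genes and the transcription factors included, and −0.003 without the near-identical Dnah7 and Rsph3 copies. The median level lay between 34.1 and 35.0 CPM per kb without each mouse.

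The replicate block, the mouse number as a term, moved the count at an adjusted p of 0.05 from 0 to 1, Dnah12. Of all tested genes 0.815% passed that cutoff in either direction with the block, and 0.0233% without it. At an unadjusted p below 0.05 the block left 13 genes, 10 higher and 3 lower, against 7.58% and 4.67% of all tested genes. Over 21465 genes the deviations of same-numbered mice from their group means correlated at −0.06, −0.05 and 0.11. Not every mouse correlated best with its own number, although the mice numbered 3 did. Deviations from the mean of so few mice depend on each other, so these values cannot settle whether the mice were paired.

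With the offsets 15 of the 61 fold changes changed sign. Among the genes of the naming rule, alone and with the block, these were Dnaaf1 (0.005 and 0.005), Dnaaf2 (0.039 and 0.042), Dnah8 (−0.060 and −0.053), Drc1 (0.052 and 0.045), Rsph1 (0.070 and 0.069) and Rsph3a (0.084 and 0.083), and with library totals Cfap206 (0.005). Without each mouse the ranges that crossed 0 were −0.027 to 0.024 for Cfap206, −0.031 to 0.145 for Dnah8, −0.139 to 0.016 for Drc1, −0.063 to 0.031 for Rsph1, −0.274 to 0.243 for Rsph4a, −0.073 to 0.007 for Rsph3a and −0.132 to 0.285 for Rsph3b. The cause of these changes was not tested. The spread between mice and the counting error left a median SE of 0.0872 on the log2 scale, and an SE of 0.550 for Rsph4a, with 9 to 19 counts per library.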
